A study of Mus musculus with 6 samples.

Results

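Of the 10652 circular RNAs (circRNAs) in the authors' table, 12 came from 3 genes of immune signalling, with 3 from Irf2, 5 from Cyld and 4 from Mertk. A circRNA was counted for a gene when its list of host genes held that gene's Ensembl identifier. The genes were chosen by levels already seen in these 6 libraries under stress and in controls, so their differences between the groups are given as a description, without a test. Both groups were adult male C57BL/6J mice, 8 to 10 weeks old at purchase, with 1 value per hippocampal library. The 3 libraries of the CUS group came from mice under chronic unpredictable stress, a 4-week schedule of mild stressors in random order such as cold swimming, restraint and food or water deprivation. The 3 Control libraries came from healthy mice, and no allele or transgene is named for either group. The labels do not say whether a library came from 1 animal or several.

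A circRNA forms when the spliceosome joins the end of an exon to the start of the same or an earlier exon, which closes the RNA into a ring without a cap or a poly(A) tail. Its level need not follow that of the linear mRNA of the gene, which was not analysed here. Irf2 encodes interferon regulatory factor 2, a transcription factor that binds the response elements of interferon-induced genes and is best known as an antagonist of Irf1. Cyld encodes a deubiquitinase that trims regulatory ubiquitin chains from adaptors of the tumour necrosis factor and Toll-like receptor pathways and so restrains NF-kB and JNK signalling. Mertk encodes a receptor tyrosine kinase of the TAM family (Tyro3, Axl, Mertk), which recognises phosphatidylserine on dying cells through the bridging ligands Gas6 and protein S. In brain, Mertk is known for the uptake of dying cells and synapses by microglia and astrocytes.

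All 12 circRNAs were classed as exonic, and each listed a single host. On the GRCm38 build, Irf2 (ENSMUSG00000031627) lies on chromosome 8 from 46739732 to 46847458 and Cyld (ENSMUSG00000036712) on chromosome 8 from 88697028 to 88751945. Mertk (ENSMUSG00000014361) lies on chromosome 2 from 128698956 to 128802894. All 3 genes are on the plus strand. These are positions of the genes, since the table was used without circRNA coordinates, and the exons inside each ring were not analysed here. The longest annotated transcript models had 9 exons for Irf2, 18 for Cyld and 19 for Mertk, where the median over 3764 host genes was 14. Host genes had a median of 2 circRNAs, and 68.5%, 85.7% and 79.1% of 3772 host genes had fewer circRNAs than Irf2, Cyld and Mertk.

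Levels are 10 to the deposited value, and 0 means that no value was listed. RNA was selected for poly(A) before sequencing, and the effect on rings, which lack that tail, was not tested. Levels are relative and without a stated unit, the number of reads behind them is unknown, and a circRNA at 0 is not shown to be absent. The length of each ring is unknown too, so levels were compared between libraries and not between genes. The 3 Control libraries held 4329 to 4606 circRNAs above 0 and the 3 CUS libraries 3991 to 4273, fewer in every CUS library. Relative depth, taken as the inverse of the smallest unit that a library's values are multiples of, was 90.8% to 100% of the highest in Control and 81.9% to 89.8% in CUS. What that unit stands for is not stated, so relative depth is not shown to be a count of reads. Both measures separated the groups in the direction of the lower Irf2 pair and of the Mertk zeros described here, and their part in those levels was not tested. Of the 12 members, 4 were above 0 in CUS replicate 1, 6 in Control replicate 3 and 7 in each of the other libraries.

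The members ranged from 90.4 to 1398 where they were above 0. A single one, mmu_circRNA009949 of Irf2, was above 0 in all 6 libraries, which 7.55% of all circRNAs were. Another 4 were above 0 in 5 libraries, 1 in 4 libraries, 2 in 2 libraries and 4 in 1 library. Of all circRNAs, 36.9% were above 0 in 1 library. The 6 members above 0 in at least 3 libraries entered the fit of all circRNAs, and the other 6 did not.

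**Figure D1:**
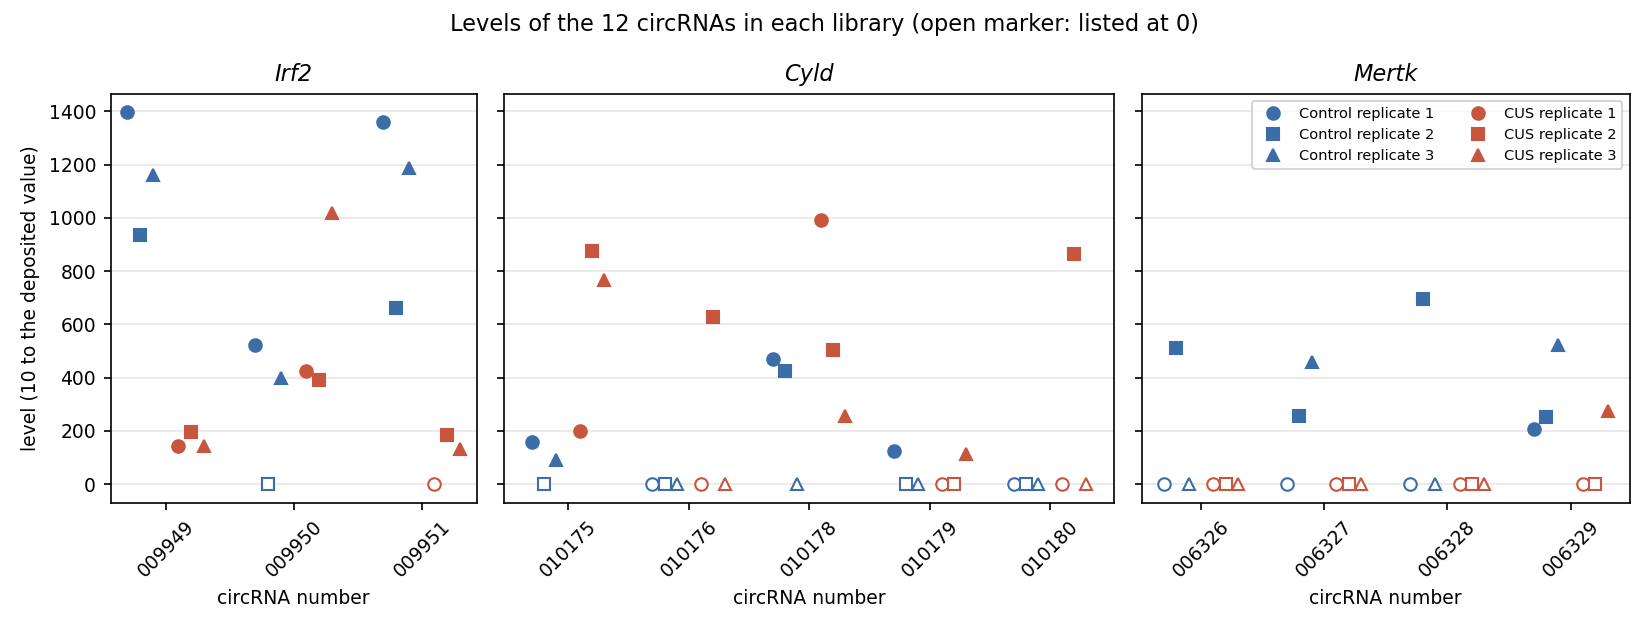
Level of each of the 12 circRNAs (y axis, 10 to the deposited value, linear scale) by circRNA number (x axis), with 1 marker per library, blue for Control and red for CUS, shaped by replicate and open where the circRNA was listed at 0. The 2 outer Irf2 circRNAs were at 196 or less in every CUS library and at 663 or more in every Control library, and 6 of the Cyld and Mertk circRNAs were seen in 1 or 2 libraries.

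Among the Irf2 circRNAs, mmu_circRNA009949 was at 1398, 935 and 1162 in Control replicates 1 to 3 and at 142, 196 and 144 in CUS replicates 1 to 3. Every CUS library lay below every Control library. Control averaged 1165 ± 231 and CUS 161 ± 30.9 (SD, n = 3 each), a 7.25-fold lower level in CUS and a log2 difference of -2.55 on the log2(level + 45.5) scale used for the fits.

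The second Irf2 circRNA, mmu_circRNA009951, was at 1361, 663 and 1189 in Control and at 0, 183 and 130 in CUS. It was again lower in every CUS library. Its levels lay close to those of mmu_circRNA009949 in 4 libraries, within 5 to 15 steps of the smallest unit that each library's values are multiples of. The difference was larger in Control replicate 2, at 108 steps (935 against 663), and in CUS replicate 1, where 1 was at 142 and the other at 0. The 2 may share reads, so the pair was counted once below, through mmu_circRNA009949, the member of higher summed level.

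The third, mmu_circRNA009950, did not share that pattern. It was at 521, 0 and 399 in Control and at 425, 393 and 1019 in CUS, so the groups overlapped. Its log2 difference of 1.42 was 0.26 without Control replicate 2, the library where it was listed at 0.

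The makeup of Irf2 circRNAs therefore differed between the libraries of the 2 groups. With the pair counted once, mmu_circRNA009949 was 72.8%, 100% and 74.4% of the summed Irf2 level in Control replicates 1 to 3. In CUS replicates 1 to 3 it was 25.0%, 33.3% and 12.4%. The remaining share, that of mmu_circRNA009950, was 27.2%, 0% and 25.6% in Control but 75.0%, 66.7% and 87.6% in CUS. The same comparison was run over 2386 circRNAs of 828 host genes with at least 2 circRNAs and a sum above 0 in every library. The groups did not overlap for 4.82% of them with a higher share in CUS and for 5.87% with a lower share. Of the 828 genes, 38 (4.59%) had a circRNA in each direction, as Irf2 did. Irf2 entered with 2 circRNAs whose shares add to 100% in each library, so the lower share of 1 fixed the higher share of the other. The levels behind these shares are those the genes were chosen with, so nothing is read from the comparison.

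**Figure D2:**
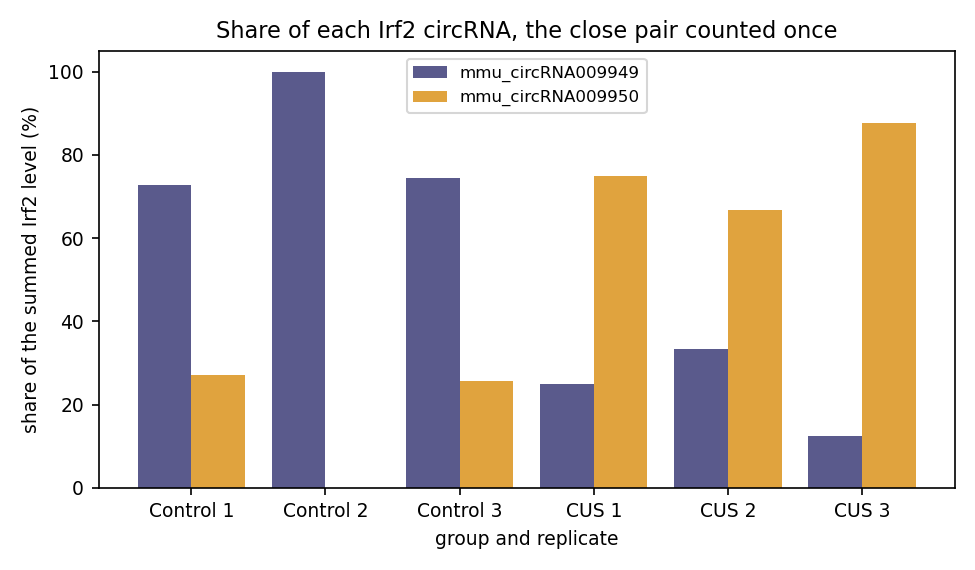
Share of the summed Irf2 circRNA level (y axis, %) held by mmu_circRNA009949 and mmu_circRNA009950 in each library (x axis), with the close pair counted once. The bar of mmu_circRNA009949 is the taller in the 3 Control libraries, from 72.8% to 100%, and the shorter in the 3 CUS libraries, from 12.4% to 33.3%.

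Summed with the pair counted once, Irf2 was at 1919, 935 and 1561 in Control and at 566, 589 and 1163 in CUS. CUS replicate 3 lay above Control replicate 2, so the groups overlapped, with means of 1472 ± 498 and 773 ± 338 (SD, n = 3 each) and a log2 difference of -0.91. With both members of the pair summed, Irf2 was at 3281, 1599 and 2750.0 in Control and at 566, 772 and 1294 in CUS. The groups then did not overlap, and the log2 difference was -1.50. Whether the Irf2 sum separated the groups thus rested on how the pair was counted.

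Among the Cyld circRNAs, mmu_circRNA010175 was at 157, 0 and 90.4 in Control and at 200.5, 877 and 766 in CUS. The lowest CUS library lay above the highest Control library by a narrow margin, and the other 2 CUS libraries lay well above it. The next, mmu_circRNA010178, was at 471, 424 and 0 in Control and at 994, 503 and 256 in CUS. CUS replicate 3 fell below 2 Control libraries. Its log2 difference of 1.32 was 0.18 without Control replicate 3, where it was listed at 0.

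The other 3 Cyld circRNAs were above 0 in 1 or 2 libraries. Both mmu_circRNA010176 (627) and mmu_circRNA010180 (863) were seen in CUS replicate 2 alone. Control replicate 1 held mmu_circRNA010179 at 126 and CUS replicate 3 held it at 111, and the other 4 libraries had it at 0. No Cyld circRNA was above 0 in all 6 libraries, and 2 of the 5 led the sum, mmu_circRNA010178 in Control replicates 1 and 2 and CUS replicate 1, and mmu_circRNA010175 in Control replicate 3 and CUS replicates 2 and 3. In Control replicate 2 mmu_circRNA010178 was 100% of the Cyld level, in Control replicate 3 mmu_circRNA010175 was 100%, and in CUS replicate 2 the level was spread over 4 circRNAs with 17.5% to 30.6% each.

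The summed Cyld level was 753, 424 and 90.4 in Control and 1194, 2869.7 and 1133 in CUS. All 3 CUS libraries were above all 3 Control libraries, with means of 1732 ± 985 against 422 ± 331 (SD, n = 3 each), 4.10-fold higher in CUS, and a log2 difference of 2.13. That difference was 1.41 without Control replicate 3, the library with a single Cyld circRNA at 90.4. Without the 2 circRNAs seen in CUS replicate 2 alone, the CUS libraries were at 1194, 1379.7 and 1133 (1236 ± 128, SD, n = 3), still above every Control library. Spread within CUS was then smaller, while Control kept its range of 90.4 to 753.

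Among the Mertk circRNAs, mmu_circRNA006329 was at 208, 252 and 521 in Control and at 0, 0 and 275 in CUS. CUS replicate 3 lay above 2 Control libraries. The remaining 3 were listed at 0 in all CUS libraries. Of these, mmu_circRNA006327 was at 257 in Control replicate 2 and 458 in Control replicate 3, while mmu_circRNA006326 (509) and mmu_circRNA006328 (696) were seen in Control replicate 2 alone.

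The summed Mertk level was 208, 1714 and 979 in Control and 0, 0 and 275 in CUS. Control replicate 1, with mmu_circRNA006329 alone, lay below CUS replicate 3, so the groups overlapped. Control replicate 2 held all 4 Mertk circRNAs, the highest sum of any library. CUS replicates 1 and 2 held none, at relative depths of 81.9% and 89.8%, both below the 90.8% of the lowest Control library. CUS replicate 3, which held mmu_circRNA006329 at 275, was at 88.8%, below CUS replicate 2. The part of depth in the Mertk zeros was not tested.

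**Figure D3:**
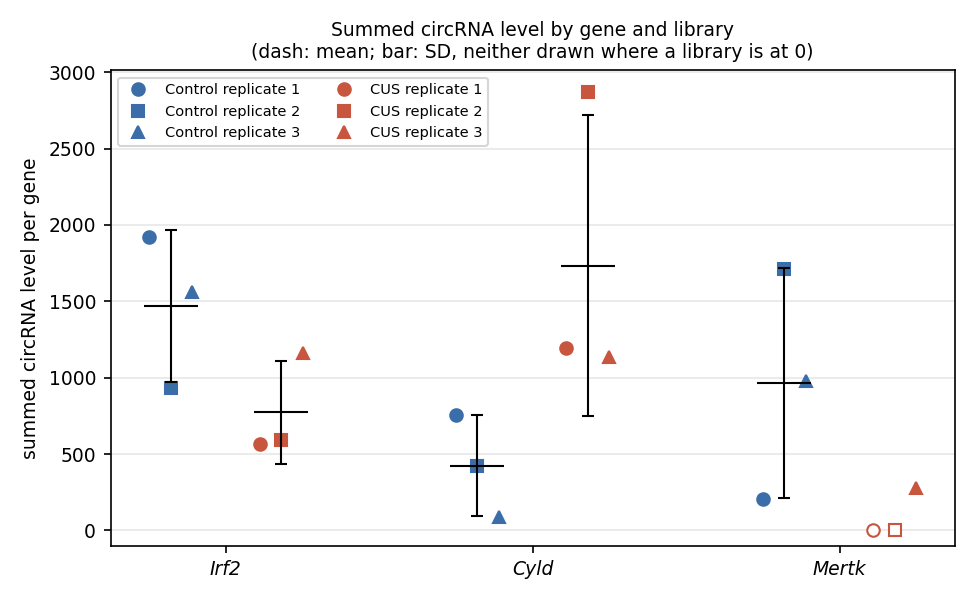
Summed circRNA level per gene (y axis, linear scale) for Irf2 with its close pair counted once, Cyld and Mertk, with 1 marker per library in blue for Control and red for CUS, a dash for the mean and a bar for the SD where no library is at 0. The 3 CUS libraries lie above the Control libraries for Cyld (1133 to 2869.7 against 90.4 to 753), and the groups overlap for Irf2 and Mertk.

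Of the 6 members in the fit, 2 had all CUS libraries below all Control libraries (the Irf2 pair, which is 1 of 5 when counted once) and 1 had them above (mmu_circRNA010175). Over all 3896 circRNAs in the fit these shares were 5.08% lower and 5.78% higher. Of the 3 gene sums, Cyld alone did not overlap, on the higher side, where the shares over 2227 summed host genes were 5.66% higher and 5.70% lower. The genes were chosen with these levels in view, so nothing is read from those counts. Limma's moderated test with Benjamini-Hochberg adjustment called 0% of the 3896 circRNAs and 0% of the 2227 host sums at an adjusted p under 0.05, with lowest adjusted p-values of 0.577 and 0.746. No circRNA or sum of the 3 genes was therefore called. At an unadjusted p under 0.05, 2.75% of circRNAs were higher and 3.26% lower in CUS (234 in all), and 2.56% of host sums were higher and 3.10% lower (126 in all).

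The other genes of these pathways were taken from 4 lists by their known roles, 225 entries in all, with earlier results of these data known. Of these, 50 had a circRNA and 28 were tested. None of the 28 passed limma's test on host sums (adjusted p under 0.05), and 2 had an unadjusted p under 0.05, Birc2 and Ano6. Over all 2227 host sums, 2.56% were higher and 3.10% lower in CUS at that unadjusted threshold. Groups that did not overlap made up 5.66% of all host sums on the higher side and 5.70% on the lower. By sign alone, 1065 of the 2227 host sums had a positive and 1162 a negative fitted difference. The pathway and marker lists below hold few tested genes, so nothing is read from their counts, signs included, beside these shares. Irf1 and Irf3 to Irf9, the Toll-like receptors, the TAM receptors Axl and Tyro3 and their ligands Gas6 and Pros1 were among the list genes without a circRNA. Because these are bulk samples, fewer cells of a type and less RNA per cell cannot be told apart.

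Interferon genes with a circRNA numbered 7 of 53 listed. Of those listed, 52 were in the annotation used, and Mb21d1 was not, so it could not be matched. Of the 4 tested, 2 had a positive and 2 a negative fitted difference, with a median log2 difference of -0.40 beside -0.06 over all host genes tested. Pias2, a SUMO ligase of the family that inhibits activated STAT factors, was at 1535, 996 and 1851 in Control and at 413, 307 and 916 in CUS over 8 circRNAs. Every CUS library was below every Control library, with a log2 difference of -1.44 (SE 0.72) and a limma adjusted p of 0.895. Ptpn11, which encodes the phosphatase SHP2, was at 232, 75.6 and 160 in Control and at 177, 78.0 and 0 in CUS. Tank, an adaptor of the kinases that activate interferon regulatory factors, was at 435, 0 and 428 in Control and at 419, 465 and 0 in CUS. Adar, the double-stranded RNA editing enzyme, was at 94.2, 484 and 0 in Control and at 209, 202 and 128 in CUS. The groups overlapped for all of these but Pias2, and the sign of the Tank and Adar differences changed when 1 library was left out.

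In the NF-kB, TNF and Toll list, which holds the partners and targets of Cyld, 13 of 74 genes had a circRNA. Of the 7 tested, 6 had a positive and 1 a negative fitted difference, where 1065 of all 2227 host sums were positive. The median log2 difference was 0.54, and nothing is read from so few genes. Birc2, which encodes the ubiquitin ligase cIAP1 of the TNF receptor complex, was at 0, 1319 and 723 in Control and at 1309, 2528 and 1299 in CUS. Its groups overlapped, since Control replicate 2 lay above 2 CUS libraries. The log2 difference was 2.21 (SE 0.89) with a limma adjusted p of 0.746, and 0.71 without Control replicate 1. Traf3, an adaptor of TNF and Toll receptor signalling, was at 0, 265 and 819 in Control and at 640, 613 and 429 in CUS. Itch, a ubiquitin ligase known to act with Cyld, was at 43.5, 134 and 356 in Control and at 174, 452 and 473 in CUS. Nfkbiz, an atypical I-kappa-B protein, was at 579, 0 and 186 in Control and at 136, 820.4 and 0 in CUS, and its difference changed sign when 1 library was left out. Peli2, a Pellino ubiquitin ligase, was at 488, 247 and 0 in Control and at 0, 0 and 261 in CUS. None of the 7 had groups that did not overlap.

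In the list of TAM receptors and clearance of dying cells, 15 of 52 genes had a circRNA. Of the 10 tested, 4 had a positive and 6 a negative fitted difference, with a median log2 difference of -0.10. Ano6, which encodes a scramblase that exposes phosphatidylserine on the cell surface, was at 304, 466 and 548 in Control and at 1430, 1143 and 1759 in CUS over 3 circRNAs. All CUS libraries were above all Control libraries, with means of 1444 ± 308 against 440 ± 124 (SD, n = 3 each), a log2 difference of 1.63 (SE 0.73) and a limma adjusted p of 0.762. Crkl, an adaptor on the route from the receptors to the engulfing cytoskeleton, was at 0, 90.8 and 106 in Control and at 242, 209.8 and 226 in CUS, also without overlap.

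On the lower side of that list, Elmo1, a partner of Dock1 in engulfment, was at 128, 259.7 and 0 in Control and at 215, 0 and 0 in CUS. The groups overlapped. Ptk2, the focal adhesion kinase gene, ranged from 1687 to 3107 in Control and from 1361 to 3205 in CUS. Adam10, a sheddase, ranged from 1949 to 2527 and from 1495 to 3185, and Adgrb3, a relative of the phosphatidylserine receptor Adgrb1, from 1508 to 2100.2 and from 1466 to 2542. The ranges of these 3 overlapped throughout, and the small differences of Ptk2 and Adam10 changed sign when 1 library was left out.

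In the cytokine, chemokine and complement list, 15 of 46 genes had a circRNA. Of the 7 tested, 4 had a positive and 3 a negative fitted difference, with a median log2 difference of 0.33. Nfatc3, a calcium-regulated transcription factor gene, was at 565, 1185 and 817 in Control and at 2052, 1724 and 1245 in CUS over 6 circRNAs. Its groups did not overlap, with a log2 difference of 0.96 (SE 0.61) and a limma adjusted p of 0.918. Smad4, the shared mediator of TGF-beta signals, was at 2574 ± 347 in Control and 2205 ± 383 in CUS, and Csmd1, a complement-regulating transmembrane gene, at 3730 ± 1117 and 3490 ± 1249 (SD, n = 3 each). Control libraries averaged 1636 ± 1004 and CUS libraries 1836 ± 643 for Csmd3, and Nfatc2 at 894 ± 96.5 and 811 ± 354 (SD, n = 3 each). Smad2 was at 563, 0 and 0 in Control and at 466, 0 and 905 in CUS. Those 5 genes had overlapping groups, and the sign for Csmd1, Csmd3 and Nfatc2 depended on single libraries.

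**Figure D4:**
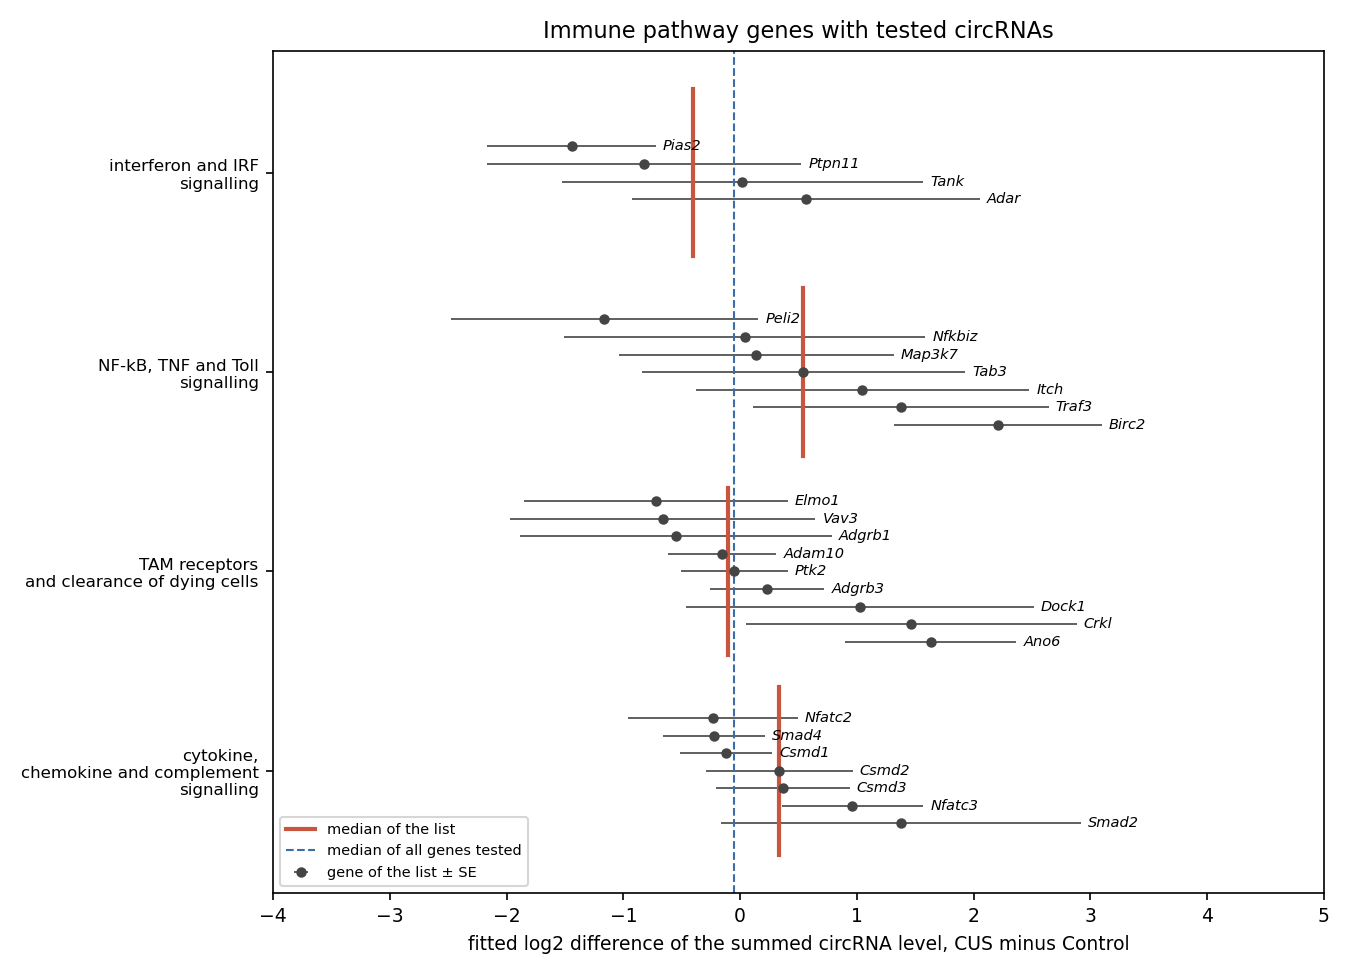
Fitted log2 difference of the summed circRNA level, CUS minus Control (x axis), for tested genes of the 4 immune pathway lists (rows within each list, 27 of 28 drawn), with bars of 1 SE, a red line at the list's median and a dashed line at the median over all 2227 host genes (-0.06). Genes lie on both sides of 0 in each list, and Birc2 at 2.21 and Ano6 at 1.63 are farthest to the right in theirs.

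Markers of the cells that use these pathways were measured in the same way. Of 24 microglial markers, 23 had no circRNA, among them Csf1r, Cx3cr1, P2ry12 and Tmem119, and Siglech was at 101 in Control replicate 1 and at 0 in the other 5 libraries. None of 9 blood leukocyte markers had a circRNA, and of 14 vascular and choroid markers Flt1 alone had one, at 176 in Control replicate 2 and 233 in CUS replicate 1. Of 18 astrocyte markers, 6 had circRNAs, and their summed level was 4536 to 4970 in Control and 3712 to 6303 in CUS. Of 13 oligodendrocyte markers, 6 had circRNAs, summing to 2242 to 2491 in Control and 2964 to 4172 in CUS. Neuronal markers, 7 of 12 with circRNAs, summed to 8926 to 14834 in Control and 9142 to 15286 in CUS. With no circRNA for 23 of 24 markers, the microglial list could not follow microglia in these libraries. Oligodendrocyte sums lay higher in each CUS library, and astrocyte and neuronal sums overlapped. Single markers did not all follow their sum, and those named next were chosen after their values were seen. Of the 6 astrocyte markers in the fit, 3 had a higher and 3 a lower fitted level in CUS. The higher 3 were Slc1a2, Slc4a4 and Gli3, with log2 differences of 1.35, 1.01 and 1.11 and overlapping groups. The lower 3 were Gpc5, Prex2 and Bmpr1b, with log2 differences of -1.23, -1.01 and -0.27, and the groups overlapped for Bmpr1b. Gpc5, a glypican gene, was at 377, 1056 and 801 in Control and at 348, 296 and 179 in CUS, and Prex2 was at 888 to 981 in Control and 163 to 805 in CUS, so both lay lower in every CUS library. Of the 4 oligodendrocyte markers in the fit, 3 had a higher fitted level in CUS and Prr5l a lower one (a log2 difference of -1.83). Slc44a1, a choline transporter gene, was the one of these 4 whose groups did not overlap, at 0 to 556 in Control and 557 to 1427 in CUS. Of the 6 neuronal markers in the fit, 5 had a lower fitted level in CUS and Rbfox3 a higher one (a log2 difference of 2.74). Rbfox3 was at 1429, 0 and 0 in Control and at 1595, 118 and 3338 in CUS. The groups overlapped for each of the 6. The part of cell makeup in the Irf2, Cyld and Mertk levels was not tested.

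Genes with circRNA profiles most like those of the 3 genes were found by the root mean square difference between log2(level + 45.5) profiles over the 6 libraries, each centred on its own mean. For Irf2, with the pair counted once, the nearest of 919 genes above 0 in all libraries were Sv2b, a synaptic vesicle protein gene (0.28), 2010111I01Rik (0.30) and Mark3, a microtubule-affinity regulating kinase gene (0.32), beside a median of 0.94 over all 919. For Cyld the nearest were Celf2, an RNA-binding protein gene (0.57), Atp2b1, a plasma membrane calcium pump gene (0.60), and Nphp4, a gene of the ciliary transition zone (0.63), beside a median of 1.52. For Mertk, among 1323 genes above 0 in at least 5 libraries, they included Mid2, a ubiquitin ligase gene of the TRIM family (0.93), and Nedd4l, a HECT ubiquitin ligase gene (1.01), beside a median of 2.17. None of these 8 genes is in the 4 immune lists. Those lists hold only 13 genes above 0 in all 6 libraries, beside the 919 compared, so nothing is read from that. Celf2, the gene nearest to Cyld, was at 683, 472 and 93.1 in Control and at 728, 947 and 826 in CUS. Mid2, the gene nearest to Mertk, was at 159, 1450 and 617 in Control and at 0, 151 and 179 in CUS. The libraries are the same for every gene compared, so shared depth and scaling enter these distances. The nearest genes were picked for small distances, so their place below the median was fixed and nothing is read from it. For scale, a profile equal in all 6 libraries would lie at 0.63 from Irf2, 1.37 from Cyld and 2.01 from Mertk.

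**Figure D5:**
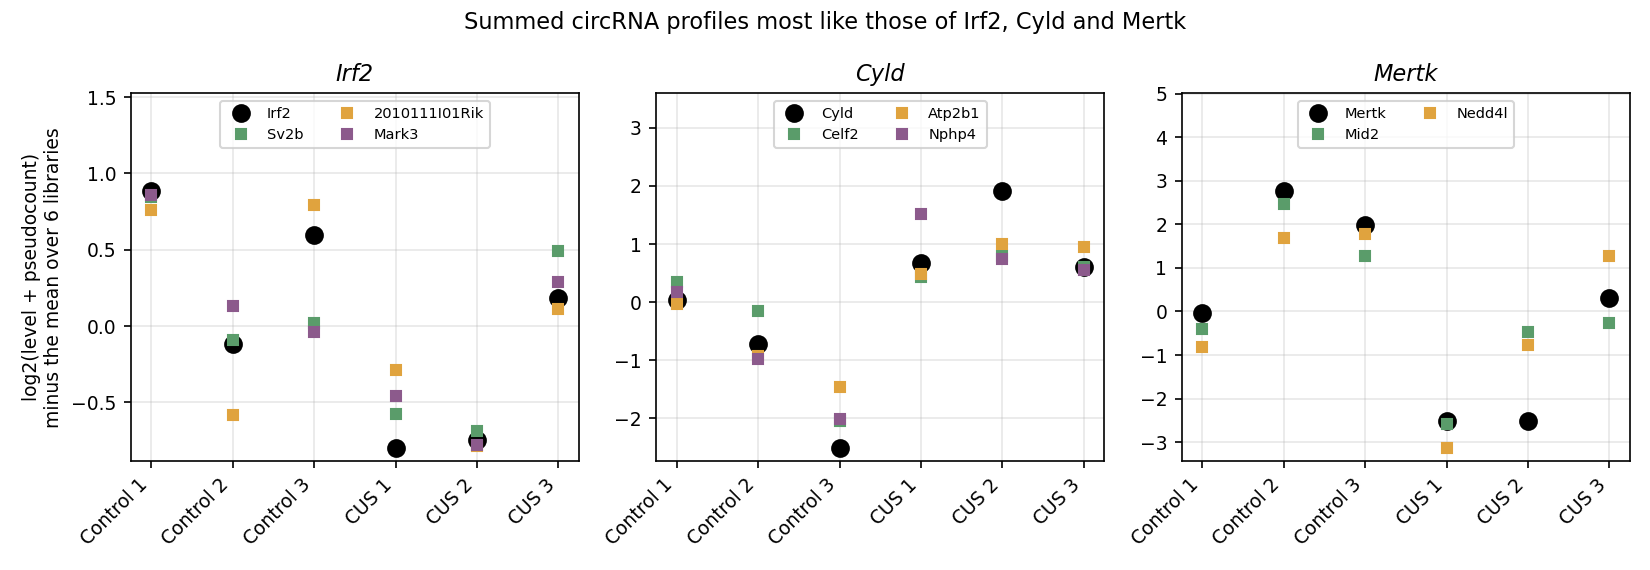
Centred log2(level + 45.5) of the summed circRNA level (y axis) in each library (x axis) for Irf2, Cyld and Mertk (black circles) and genes of nearest profile to each, 3 for Irf2, 3 for Cyld and 2 for Mertk (coloured squares). For Cyld, all 4 genes have their lowest value in Control replicate 3, and for Mertk, the 3 genes have their highest Control values in replicates 2 and 3.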

How the data were processed

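Per the labels' protocols, total RNA went through 2 rounds of poly(A) selection, and stranded, paired-end libraries carried molecular identifiers. The submitters' processing notes list mm9, StringTie, DESeq and edgeR with no role. Software for calling rings was not given in the sources used here. Values were deposited by the authors as log10, with 0 where a circRNA has none. Raising 10 to each value gave the level, a whole multiple (within 0.05) of 1 step per library for 100% of values under 300 steps, and relative depth is the inverse of that step. What a step stands for is not stated, so relative depth describes a library's scale and is not a known number of reads.

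Host identifiers were matched to GENCODE vM21 symbols (4467 of 4483). Levels were summed per host, and a circRNA with several hosts went to its only protein-coding one or was left out. Limma 3.58.1 in R 4.3.3 (trend) compared CUS with Control on log2(level + 45.5), the median lowest level above 0, for features above 0 in at least 3 of 6 libraries, with Benjamini-Hochberg adjustment at 0.05. The code of the fit was checked on simulated levels that had no zeros and little spread between libraries. That check does not show what the fit can detect in these data. As replicate sources are unnamed, p-values reflect spread between libraries, which may be technical. Python 3.11.15, numpy 2.4.6, pandas 2.3.3 and matplotlib 3.10.9 made tables and figures.

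The members, lists and rules were chosen with earlier results of these data known. In each pathway list the rule named the 4 tested hosts of highest mean and the 2 of smallest p in each direction, and for each gene the 3 hosts of nearest profile; 2 of the hosts so named are not reported here. Alternatives covered the pseudocount, filter, scaling, trend, replicate block, each library left out and the way members were summed.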

Additional observations from a re-analysis of the deposited data

How the results depend on the processing

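The count of called features was 0 in all 14 alternatives for circRNAs, host sums and immune list hosts, with 32 to 262 circRNAs, 52 to 131 host sums and 0 to 3 list hosts at an unadjusted p under 0.05 in limma. The lowest adjusted p over these settings was 0.329 for circRNAs and 0.198 for host sums. The fitted differences of the Irf2, Cyld and Mertk sums kept their direction in every alternative run. The genes were chosen by levels in these same libraries, so a direction kept on refitting them is a description and no support. Leaving out 1 library at a time gave log2 differences of -1.23 to -0.69 for the Irf2 sum, 1.41 to 2.68 for Cyld and -4.08 to -2.55 for Mertk. The Irf2 sum moved beyond the spread between replicates when both members of its close pair were summed (-1.50). The Mertk difference ran from -4.65 with 0.2 times the pseudocount to -1.77 with 5 times it, as its CUS libraries hold zeros. Without the 2 circRNAs seen in Control replicate 2 alone it was -2.59, and Cyld without the 2 seen in CUS replicate 2 alone was at 1.78, both chosen after seeing the data.

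Among 22 named pathway hosts, none called, 8 changed sign when 1 library was left out. The log2 difference ran from -1.11 to 1.16 for Tank, -0.29 to 1.48 for Adar, -1.05 to 1.08 for Nfkbiz, -0.29 to 0.32 for Ptk2, -0.48 to 0.059 for Adam10, -0.38 to 0.22 for Csmd1, -0.33 to 0.76 for Csmd3 and -0.48 to 0.17 for Nfatc2. The cause was not tested.

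Replicate numbers are shared between the groups. Deviations of same-numbered libraries correlated at -0.011, -0.025 and -0.020 over 3896 circRNAs, so the numbers gave no sign of pairing. With the replicate block, 0 circRNAs, 0 host sums and 0 list hosts passed, with lowest adjusted p-values of 0.738 and 0.821 for circRNAs and host sums.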

Other observations

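Several immune genes had circRNAs in too few libraries to be tested, and their levels were confined to 1 or 2 libraries. Those given with levels here were picked after their values were seen. Ifit2, an interferon-induced gene, had 3 circRNAs summing to 1446 in Control replicate 1 and was at 0 elsewhere, and Tbk1, the kinase upstream of interferon regulatory factors, was at 1979 in Control replicate 3 alone. Tyk2, a kinase of the interferon receptor, was at 539.5 in CUS replicate 1 alone. Another 3 genes were seen in CUS replicate 2 alone, the library that also held 2 Cyld circRNAs of its own. They were Ripk1, the kinase of the TNF receptor complex and a known Cyld substrate, at 734, Nfkbib, an NF-kB inhibitor, at 455 and Tub at 863. Whether these share a cause with the Cyld circRNAs was not tested. Map3k8, a kinase held inactive by the NF-kB1 precursor, was at 232 and 973 in Control replicates 2 and 3, and Lifr, a cytokine receptor gene, at 560.1 and 579.8 in Control replicates 1 and 3, both at 0 in CUS. Tgfbr3 was also above 0 in 2 Control libraries alone. Sirpa, Cd46, Il1rap, Tgfbr1, Tgfbr2 and Smad3 were each above 0 in 1 library of each group. Malt1, Map3k14, Itgav, Il16, Adam17 and Atp11a were each above 0 in 1 Control library alone, and Il6st in 1 CUS library alone. Of all single circRNAs in the table, 36.9% were above 0 in 1 library and 26.5% in 2, which is not a share of genes. By gene, 2227 of 3772 host sums were above 0 in at least 3 libraries, beside 28 of the 50 list genes with a circRNA.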
